A study of Mus musculus with 25 samples.

Results

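Macrophages sorted from the lung and from the skin of neutrophil-depleted mice were compared through the 10123 genes that the lung and the skin expression table hold in common, of 14405 genes in either table. Each gene was ranked within each library by its share of the reads (rank 1 is the highest), and its ranks were compared between 3 lung and 4 skin libraries, 7 of the 25 libraries of the series. The shared genes are 85.3% of the lung table and 80% of the skin table. A further 1744 genes are listed for the lung alone and 2538 for the skin alone, and these are described separately.

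All mice were C57BL/6, carried the Rosa26_DTR allele (a diphtheria toxin receptor that is made once Cre has acted) and received 10 µg/kg of diphtheria toxin into the peritoneum for 7 days. The depleted mice carried Mrp8_CRE, in which the promoter of Mrp8 (S100a8), a gene used mainly by neutrophils, drives Cre; the controls, labelled Mrp8_WT, received the same toxin. Ages were not given. Lung interstitial macrophages had been sorted as living CD45+ CD68+ F4/80+ cells, negative for CD11c and high for CD11b, and skin macrophages as living CD45+ CD11b+ CD68+ F4/80+ cells, with no CD11c gate in the description. PDGFRA+ fibroblasts of the same organs (3 depleted libraries each) served as a second cell type, gated on CD90.1 as well in the skin. The labels do not say whether the libraries of a group came from separate mice or from pools, so each spread and p-value below measures the variation between these samples, which may be technical.

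Tissue macrophages engulf dead cells and debris, break them down in lysosomes, present peptides on MHC class II molecules and send chemokines to other leukocytes. They are partly renewed from blood monocytes, and their gene expression depends strongly on the organ they live in. Interstitial macrophages lie in the lung tissue between airways and vessels, apart from the alveolar macrophages that clear surfactant from the air spaces, whereas skin macrophages lie mostly in the dermis, near keratinocytes, fibroblasts and Langerhans cells.

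Depth set the way the organs could be compared. Over the shared genes the lung libraries held 174288 to 201366 estimated reads and the skin libraries 6426274 to 18083121, a ratio of medians of 81.4, so that 1 read weighed far more in the lung. Levels are given below in ppm (parts per 1000000 of a library's estimated reads on the shared genes), always with lung libraries 1, 2 and 3 before skin libraries 1, 2, 3 and 5. On this scale 1 read was worth 4.97 to 5.74 ppm in the lung and 0.0553 to 0.156 ppm in the skin. Organ, table, normalisation, sorting gate and depth changed together and cannot be told apart. For that reason no p-value is given for lung against skin alone, and 3 libraries against 4 could in any case not go below 0.0571 in a two-sided exact permutation test.

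There were 2 libraries that stood apart from their groups. Skin library 5 held 87.1 ppm of the Y-linked Ddx3y, against at most 0.166 in the other skin libraries, and it was low in Cd207, the langerin of Langerhans cells (5.93 ppm of the skin table against 132 to 197). Lung library 3 held 6858 ppm of Scgb1a1, the secretory product of airway club cells, against 1321 and 958 in the others. Leaving both out together kept 129 of the 143 genes called higher in lung below and 85 of the 100 called higher in skin.

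The sorting markers were present in all 7 libraries. Ptprc, which encodes CD45, stood at 179, 252 and 253 in the lung and at 655, 579, 448 and 815 in the skin. Cd68 stood at 1058, 1182 and 1220 against 1649, 1284, 1705 and 1751, and Adgre1, which encodes F4/80, at 273, 270 and 253 against 464, 565, 436 and 759. These 3 genes were thus at the higher level in every skin library, by 1.38- to 2.66-fold between mean levels with 10 ppm added. Itgam, which encodes CD11b, overlapped between the organs (132 ± 17.6 (SD, n = 3) in lung and 159 ± 60.3 (SD, n = 4) in skin). Itgax, which encodes the CD11c that the lung gate excluded, was at 49.7, 74.7 and 70.9 in the lung and 28.5, 70.9, 55.2 and 63.7 in the skin, so its transcript was not lower in the CD11c-negative sort.

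Transcripts that define other cells were also present, and differed by organ. The 7 neutrophil markers shared by the tables summed to 1523 to 1889 ppm in lung macrophages and to 44.8 to 206 in skin macrophages, and none of the 7 was at 0 throughout either group. The 3 lung epithelial markers in both tables, Scgb1a1, Cyp2f2 and Napsa, summed to 1552 to 7708 in the lung and 362 to 496 in the skin. Napsa is in the monocyte list as well, and Scgb1a1 had a single read over the skin libraries. The 9 endothelial and pericyte markers summed to 270 to 302 and 92.4 to 116. In the other direction, 16 fibroblast markers summed to 184 to 234 in the lung, where Col5a1, Col6a2 and Mmp2 were at 0, and to 406 to 1608 in the skin. The 4 keratinocyte markers in both tables summed to 70.9 to 115 and 310 to 603. The sums of the 5 of 20 T and NK cell markers in both tables overlapped between the organs (172 to 238 and 128 to 208). Those of 3 of 12 B and plasma cell markers did as well (149 to 294 and 257 to 512). Left out of these sums are 2 T and NK markers listed for the lung alone and 8 for the skin alone, and 7 B and plasma markers listed for the lung alone and 0 for the skin alone. The part of these cells in the differences below was not tested, and in bulk samples fewer cells of a type and less RNA per cell cannot be told apart.

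**Figure D1:**
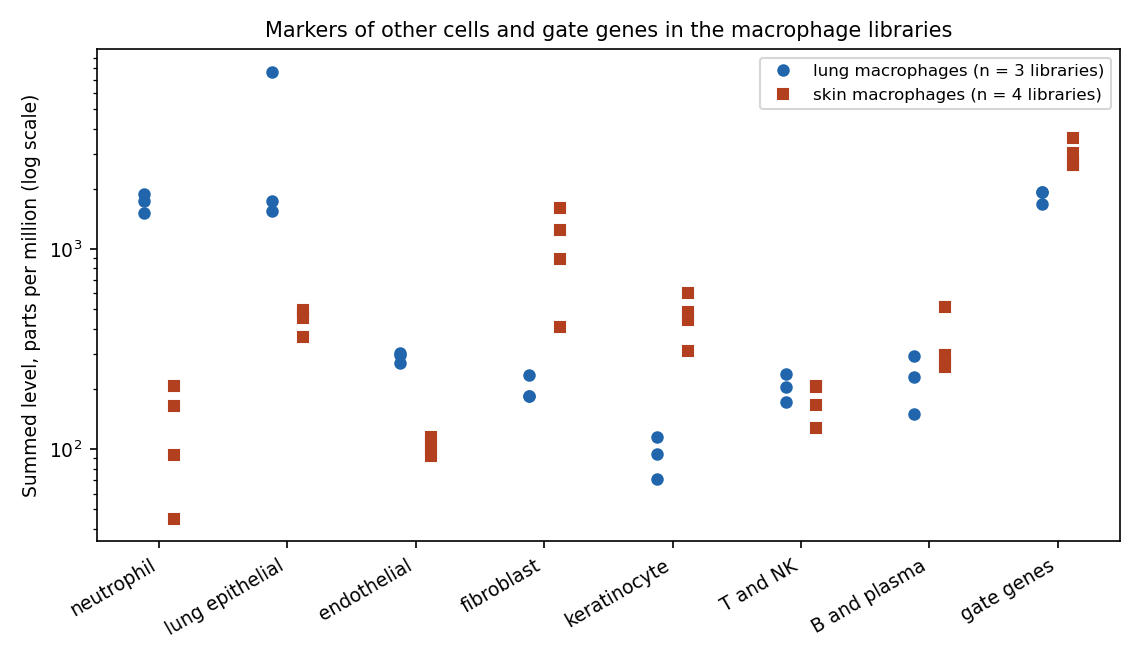
Summed level of marker genes of other cell types, and of the 5 genes of the sorting gates, in each macrophage library of depleted mice, in ppm on a log scale. Blue circles are the 3 lung libraries and red squares the 4 skin libraries; neutrophil, epithelial and endothelial sums are higher in every lung library, fibroblast and keratinocyte sums in every skin library.

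The most abundant transcripts were largely the same in both organs. Cd74, the invariant chain that chaperones MHC class II, had rank 1 in all 7 libraries. The other 9 genes with the lowest mean rank were H2-Ab1, H2-Aa and H2-Eb1 (chains of class II molecules), Lyz2 (the macrophage lysozyme), Ftl1 (ferritin light chain), Tmsb4x and Actb (actin and its partner thymosin), and mt-Atp6 and mt-Co1 from the mitochondrial genome. Of the 100 highest genes of each organ, 61 were shared. Ranks here follow reads and are not corrected for gene length.

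Across 3207 genes, the Spearman correlation of a lung with a skin macrophage library had a median of 0.671 (range 0.623 to 0.691 over 12 pairs). It was 0.905 between lung macrophage libraries and 0.901 between skin macrophage libraries. Lung macrophages correlated with lung fibroblasts at 0.322 and with skin fibroblasts at 0.109, and skin macrophages with skin fibroblasts at 0.31. The macrophages of the organs were therefore closer to each other than to the fibroblasts of their own organ, in libraries that share neither depth nor normalisation. These values describe the libraries over genes, which are not independent replicates.

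Differences were read from the 2678 genes that averaged at least 50 ppm over the lung and the skin means (26.4% of the shared genes). A gene was called where the ranks of the 3 lung and the 4 skin libraries did not overlap and the median ranks lay at least 4-fold apart. By this rule 143 genes ranked higher in lung macrophages, which is 5.34% of the genes examined, and 100 ranked higher in skin macrophages, which is 3.73%. Without the 4-fold criterion 575 genes (21.5%) did not overlap toward lung and 611 (22.8%) toward skin. Counts of non-overlap by list are to be read beside these shares. The median ranks of 1883 genes (70.3%) lay within 2-fold of each other. The log2 ratio of median ranks used below is positive where the gene ranked higher in lung, and its median over the well-expressed genes was -0.0755. The gene that just met the 4-fold criterion was Anxa2 (ratio of median ranks 4) and the gene that just missed it was Col1a2 (3.99). Ranked per kilobase of exons, Axl (1.81), Bst2 (1.89), Casp6 (-1.69), Cx3cr1 (1.62), Mfge8 (-1.76), Oasl2 (1.88), Pkm (-1.84), Ugt1a7c (-1.79) and, by a narrow margin, Ssr1 no longer met it, while all other called genes named below did.

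**Figure D2:**
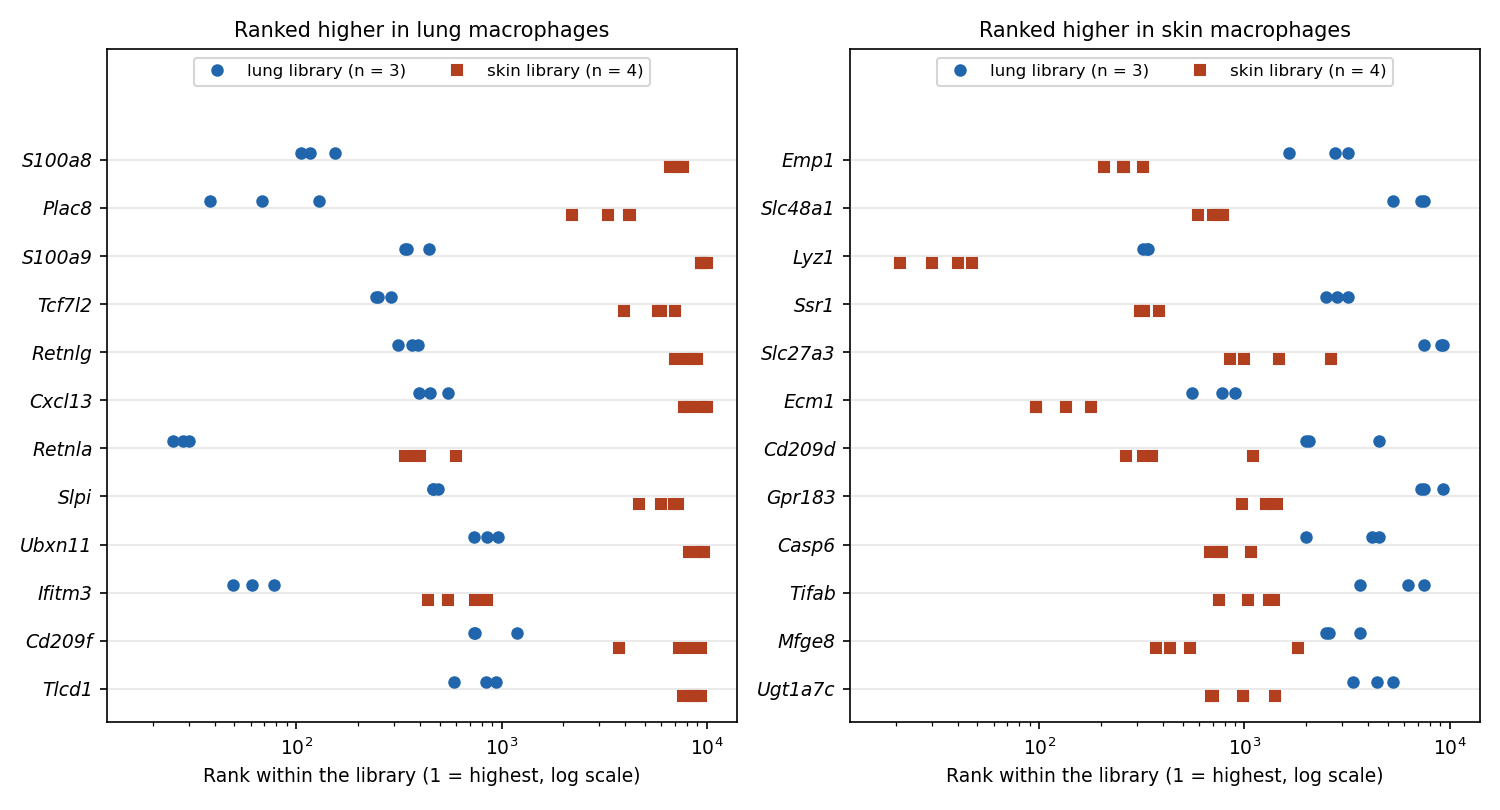
Rank within each library (log scale, 1 is the highest) of the 12 genes per direction with the largest rank ratio among those that also passed the test of the organ difference against fibroblasts. Blue circles are lung libraries (n = 3) and red squares skin libraries (n = 4); the 2 groups do not overlap in any gene shown, because the rule required it.

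Neutrophil and monocyte genes were among those that ranked highest in lung macrophages. S100a8 and S100a9, the subunits of the calcium-binding protein calprotectin, are made in quantity by neutrophils and classical monocytes. S100a8 stood at 720, 970 and 1007 ppm in the lung and at 6.69, 7.85, 8.42 and 13.5 in the skin. S100a9 stood at 343, 316 and 379 against 0, 1.38, 0 and 0.507. Retnlg, a resistin-like secreted protein of neutrophils, stood at 318, 347 and 405 against 5.12, 6.35, 3.49 and 2.54. Every lung library lay far above every skin library in all 3 genes, with log2 rank ratios of 5.92, 4.78 and 4.50.

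These genes call for the control values and the other neutrophil markers beside them. In the 3 control lung macrophage libraries S100a8 stood at 5100, 3360 and 9760 ppm, above each depleted library, and in control skin macrophages 3 at 32.8. Of the 16 neutrophil markers listed, 6 are in the lung table only. Among these, Ly6g, the antigen by which mouse neutrophils are usually recognised, stood at 18.9, 13.4 and 32.5 ppm of the lung table, and the granule proteins Camp and Ngp averaged 7.16 and 23.7. Whether S100a8, S100a9 and Retnlg came from the sorted macrophages or from remaining neutrophils was not tested.

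Of 13 well-expressed monocyte genes, 6 were called higher in lung and none higher in skin, and the list's median log2 rank ratio was 1.93. Plac8 stood at 849, 2341 and 1427 against 31, 30.6, 40.7 and 75.3 (log2 rank ratio 5.78). Ly6c2, part of the Ly6C antigen that marks classical monocytes, stood at 268, 590 and 391 against 89.4, 32, 34.8 and 51.3 (log2 rank ratio 3.32); reads of the near-identical Ly6c1 may be split with it. Gngt2, a G protein subunit found in non-classical monocytes, stood at 343, 545 and 380 against 24.1, 60, 45.4 and 77.6 (log2 rank ratio 3.03). Hp, the haemoglobin-binding haptoglobin, had a log2 rank ratio of 3.45. The remaining 7 genes of the list were not called, and 5 of all 13 lay below 0. The neutrophil marker sum given above was also higher in lung, but the order of the lung libraries differed. In lung libraries 1, 2 and 3 it was 1523, 1739 and 1889 ppm, and the monocyte list summed to 3727, 7052 and 5075.

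Several chemokine genes were called higher in lung as well. Of 18 well-expressed chemokine and chemokine receptor genes, 6 were called higher in lung and none in skin, 13 lay above 0, and the median was 1.53. Cxcl13, which draws B cells into follicles, stood at 303, 252 and 289 in the lung and at 0, 7.52, 4.82 and 0 in the skin. The monocyte attractants Ccl12 (310, 344 and 342 against 62.1, 23.7, 77.7 and 43.9) and Ccl7 (541, 546 and 583 against 103, 111, 155 and 232) did not overlap either. Ccl4, an inflammatory chemokine, stood at 447, 241 and 268 against 40.3, 39.3, 52 and 57.2. The log2 rank ratios of these genes were 4.29 for Cxcl13, 2.95 for Ccl12, 2.46 for Ccl7 and 2.69 for Ccl4. The fractalkine receptor Cx3cr1 stood at 109, 121 and 177 against 36.4, 18.5, 7.14 and 74.6, with a log2 rank ratio of 2.11 that dropped to 1.8, below the 4-fold criterion, without skin library 2 or 3. None of the 10 well-expressed inflammatory cytokine genes was called, although 9 lay above 0 (median 0.838).

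Chil3, Retnla and Abcg1, which belong to the lists of alveolar macrophages and of alternative activation (the state induced by interleukin-4), were called higher in lung. Chil3 (Ym1), a chitinase-like lectin secreted by alveolar macrophages, stood at 8378, 9267 and 4734 in the lung and at 222, 132, 115 and 237 in the skin. Its median rank was 10 in the lung and 922.5 in the skin, and its mean level with 10 ppm added was 40-fold higher in lung. Retnla (RELM-alpha), an interleukin-4 target, stood at 2772, 3829 and 3128 against 374, 251, 373 and 419, an 8.93-fold difference on that scale. Chil3 and Retnla were the only genes called of 10 well-expressed genes of alternative activation, of which 5 lay above and 5 below 0 (median 0.319). The cholesterol exporter Abcg1 stood at 3039, 2609 and 2225 against 642, 459, 560 and 495 (log2 rank ratio 3.07).

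Of 13 well-expressed genes of the alveolar macrophage list 3 were called higher in lung and 2, Ctsk and Lgals3, higher in skin, with a median of 1.07. A further 6 genes of that list are in the lung table only, among them Car4 (197, 150 and 146 ppm of the lung table), Ear1 (207, 172 and 138) and Fabp1 (164, 183 and 102). Alveolar macrophages carry CD11c, which the gate excluded, and the share of such cells among the lung macrophages was not tested.

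Axl, Tcf7l2, Slpi and Cebpb were also called higher in lung. Axl, a receptor that recognises dying cells through GAS6, stood at 154, 166 and 147 against 27.1, 32.2, 16.8 and 34.2. Tcf7l2, a transcription factor of the Wnt pathway, stood at 487, 465 and 503 against 13.4, 10.5, 31.8 and 18.5. Slpi, an inhibitor of neutrophil elastase, stood at 258, 298 and 263 against 13.6, 10.8, 9.03 and 27.5. The lung libraries of each gene lay within a narrow band above all skin libraries, with log2 rank ratios of 2.43 for Axl, 4.55 for Tcf7l2 and 3.79 for Slpi. Cebpb, a transcription factor of monocyte and macrophage differentiation, stood at 194, 218 and 182 against 23, 34.7, 13.9 and 30.9.

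Cd209f and Cd209d, neighbouring genes for DC-SIGN-related lectins of perivascular macrophages, went opposite ways. Cd209f stood at 165, 114 and 177 in the lung and at 0, 9.24, 34.2 and 5.11 in the skin. Cd209d stood at 57.6, 63.1 and 20.2 in the lung and at 461, 415, 524 and 148 in the skin. The log2 rank ratio was 3.39 for Cd209f and -2.60 for Cd209d, and they were the only called genes of 15 well-expressed genes of resident perivascular macrophages. Reads of this gene family may be split between similar members, and skin library 5 held the lowest Cd209d level of the skin.

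Interferon-stimulated genes are switched on by cells that sense type I or II interferon. Of 10 well-expressed members, 5 were called higher in lung and none in skin, 9 lay above 0, and the median was 1.73. Ifitm3, which blocks the entry of viruses, stood at 1209, 1774 and 1552 against 271, 176, 346 and 209. Ifi27l2a stood at 409, 746 and 501 against 47.3, 101, 107 and 73.9. Bst2 (tetherin), which holds budding virus at the cell surface, stood at 124, 166 and 177 against 27.5, 32.3, 60.5 and 40.1, and Oasl2 at 84.4, 104 and 97.8 against 0, 2.57, 13.5 and 21. The libraries did not overlap in these 4 genes, with log2 rank ratios from 2.25 (Bst2) to 3.40 (Ifitm3). In control mice, with skin control macrophages 3, the ratio of Bst2 was 0.59. The 24 genes of the list in both tables summed to 2850 to 3731 ppm in lung macrophages and 990 to 1421 in skin macrophages. This gap was not particular to macrophages, since the sum was also higher in lung fibroblasts (3489 to 3559) than in skin fibroblasts (1314 to 1524).

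The promoters of the called genes were searched for the core of the interferon-stimulated response element, written as GAAA, any 2 bases and GAAA again, on both strands over the 250 bases before the start in the RefSeq promoter table (GRCm38.p6). It was present in 8 of 104 genes called higher in lung that have a promoter there (7.69%), in 2 of 75 called higher in skin (2.67%), in 99 of 2113 well-expressed genes (4.69%) and in 271 of 7903 shared genes (3.43%). The core of the CLEAR element of lysosomal genes, written as TCAC followed by GTGA, was present in 1 of 104 (0.962%), 2 of 75 (2.67%) and 50 of 2113 (2.37%) of these sets and in 2 of 20 lysosomal genes (10%), Ctsa and Ctsd. These shares are a description of sequence and show no binding. The windows around the matches of Bst2, Fcgr4 (an activating receptor for IgG) and Pilra (an inhibitory receptor of myeloid cells) are printed because all 3 are receptors or restriction factors of the cell surface that ranked higher in lung, with the matching bases in capitals and each read 5′ to 3′ on the strand of the gene. The window of Bst2 (minus strand, chr8:71537542-71537647) holds 2 overlapping matches, that of Fcgr4 (plus strand, chr1:171018808-171018907) holds 1, and that of Pilra (minus strand, chr5:137836402-137836501) holds 1.
Bst2: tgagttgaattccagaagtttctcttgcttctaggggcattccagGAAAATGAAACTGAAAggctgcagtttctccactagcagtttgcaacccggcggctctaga
Fcgr4: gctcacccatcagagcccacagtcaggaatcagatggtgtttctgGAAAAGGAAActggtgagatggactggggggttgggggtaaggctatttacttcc
Pilra: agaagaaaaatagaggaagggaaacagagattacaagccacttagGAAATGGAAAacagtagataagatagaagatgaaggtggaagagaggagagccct

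The 3 genes differ in their fibroblasts. Bst2 was also called higher in lung fibroblasts (mean 120 ppm against 24.1 in skin fibroblasts). Fcgr4 was at 0 in the fibroblasts of both organs and stood at 84.5, 143 and 91.1 in lung macrophages against 5.45, 1.22, 14.8 and 15.2 in skin macrophages. Pilra stood at 145, 192 and 191 against 0, 27.5, 16.2 and 77.7. All skin libraries lay below all lung libraries in both receptors, but the skin values of Pilra spread widely. Without lung library 2, Fcgr4 averaged under 50 ppm and was no longer examined.

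Of the gene lists of macrophage functions, the lysosomal list held the most genes called higher in skin macrophages by number, but it is also among the longest lists. The shorter alveolar macrophage list held 2 of 13, and Ctsk is in both lists. Of all well-expressed genes, 3.73% were called higher in skin and 22.8% did not overlap toward skin. Of 29 well-expressed lysosomal genes, 24 lay below 0 and 5 above, 14 did not overlap toward skin and 2 toward lung, 4 were called higher in skin and none in lung, and the median was -0.623. Ctsb, the cysteine protease cathepsin B, stood at 233, 258 and 228 in the lung and at 4709, 3871, 4069 and 5895 in the skin, which is 18.6-fold higher in skin on means with 10 ppm added. Its median rank was 18 in the skin and 537 in the lung, and its log2 rank ratio of -4.90 was the lowest of all well-expressed genes. Npc2, which carries cholesterol out of the lysosome, stood at 74.5, 132 and 152 against 1771, 1751, 1892 and 1706. Gpnmb, a glycoprotein of phagosomes and melanosomes, stood at 9.93, 17.2 and 0 against 426, 242, 230 and 579. Ctsk, a collagen-degrading cathepsin, stood at 59.6, 45.9 and 40.5 against 278, 276, 253 and 341. The 33 lysosomal genes in both tables summed to 16840 to 19120 ppm in lung libraries and 29530 to 41570 in skin libraries, so the groups did not overlap in the sum. The sum was not particular to macrophages, since it was also higher in skin fibroblasts (10120 to 16150) than in lung fibroblasts (4742 to 5574).

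Lyz1, Lgals3 and Gpr183 were also called higher in skin. Lyz1, the second lysozyme gene of the mouse, stood at 368, 402 and 392 in the lung and at 2838, 2460, 2128 and 3963 in the skin (log2 rank ratio -3.26). Its near-identical neighbour Lyz2 kept a median rank of 4 and 3 in the organs, and the split of reads between the pair is uncertain. Lgals3, the lectin galectin-3, stood at 874, 861 and 977 against 4406, 4597, 4729 and 4932. Gpr183, a receptor that guides immune cells along oxysterols, stood at 4.97, 5.74 and 0 against 117, 120, 104 and 164. The lung value of Gpr183 rests on 2 reads over the 3 libraries, so only its rank, with a log2 ratio of -2.50, and no fold change is given.

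Of the glycolytic genes 1 was called. All 11 well-expressed glycolytic genes had log2 rank ratios below 0 (median -0.919), 5 did not overlap toward skin, and the called gene was Pkm, the pyruvate kinase. Pkm stood at 233, 247 and 208 in the lung and at 1269, 1041, 780 and 1855 in the skin. Gapdh (281, 289 and 314 against 1176, 1067, 1157 and 905) did not overlap either, at a log2 rank ratio of -1.90. Ldha and Pgk1 had ratios of -1.04 and -1.01. In control mice the Pkm ratio was -0.21, with levels of 260, 296 and 403 in the lung libraries and 386 in skin library 3.

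Ecm1, Klf6 and Rbm3 were further genes called higher in skin, and each is described on its own, not as part of a group. Ecm1, a secreted matrix protein, stood at 159, 149 and 237 against 1254, 965, 777 and 1210 (log2 rank ratio -2.75). Klf6, an early-response transcription factor, stood at 114, 132 and 147 against 812, 683, 838 and 1146. Rbm3, an RNA-binding protein induced by cold, stood at 149, 161 and 145 against 1480, 1758, 1650 and 1225. These 3 genes showed gaps of several fold with little spread inside either organ. The fibroblast proteoglycan Dcn (349, 257, 424 and 59.9 in the skin, and 2 reads in the lung) and the keratinocyte antigen Ly6d (19.9, 0 and 50.6 against 320, 392, 525 and 171) were called too. Their levels in skin fibroblasts averaged 21644 and 1851 ppm, and both were lowest in skin library 5, as was the fibroblast marker sum.

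The MHC class II, core macrophage, scavenger receptor, respiratory chain and ribosomal protein lists held few or no genes past the 4-fold criterion. Of all well-expressed genes, 21.5% did not overlap toward lung and 22.8% toward skin. None of 10 well-expressed class II genes was called, but 8 lay below 0, 6 did not overlap toward skin and 1 toward lung, and the median was -0.768; H2-DMb1 leaned to the skin (689, 619 and 539 against 1654, 2009, 1766 and 1815) and its copy H2-DMb2 to the lung (560, 377 and 416 against 179, 160, 177 and 113). Of 19 core macrophage genes 1 was called, Cx3cr1, with 6 not overlapping toward lung, 7 toward skin and a median of -0.415. Of 37 ribosomal protein genes 1 was called, Rpl27, higher in lung, with 5 and 9 not overlapping and a median of -0.103. Of 17 scavenger and lectin receptor genes none was called (median 0.0109), and of 32 nuclear respiratory chain genes none was called (median 0.267). Cd163, the haemoglobin scavenger receptor, stood at 99.3, 97.5 and 132 against 571, 320, 318 and 279 without reaching the 4-fold criterion (log2 rank ratio -1.42). Folr2, a marker of resident macrophages, stood at 164, 195 and 228 against 98.3, 37.9, 94.3 and 32.3 (1.91), and met the criterion when lung library 1, skin library 1 or skin library 3, or the mitochondrial, ribosomal and other-cell genes, were left out (2.04 to 2.36).

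**Figure D3:**
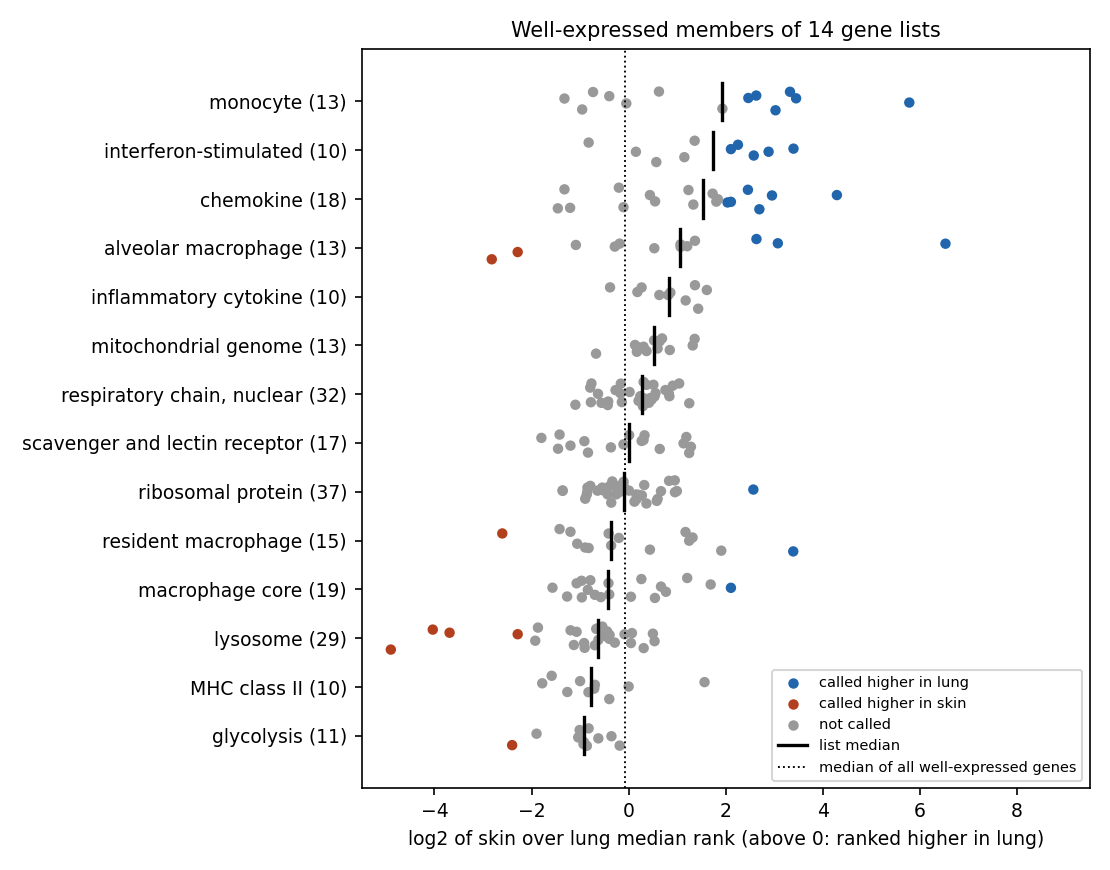
Log2 ratio of the skin over the lung median rank for the well-expressed members of 14 gene lists (number of members in brackets). Each point is a gene, blue if called higher in lung, red if called higher in skin and grey if not called; the bar is the list's median, and the dotted line is the median of all 2678 well-expressed genes (-0.0755).

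Fibroblasts of depleted mice showed many of the same organ differences. By the same rule 298 of 3491 well-expressed genes (8.54%) ranked higher in lung fibroblasts and 266 (7.62%) in skin fibroblasts. Of the 143 genes called higher in lung macrophages, 80 (55.9%) were called the same way in fibroblasts and 4 the opposite way. Of the 100 called higher in skin macrophages, 55 (55%) were called the same way in fibroblasts and none the opposite way. Such genes differed between the tables in both cell types, and tissue, table, normalisation and depth cannot be told apart for them.

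The genes shared with fibroblasts included 7 of the 12 named genes with the largest rank ratio toward lung (predicted genes passed over). Rhbdd2, a rhomboid-like membrane protein, stood at 763, 946 and 909 in lung macrophages and at 2.34, 9.5, 10.2 and 15.5 in skin macrophages, with fibroblast means of 668 in the lung and 14.6 in the skin. The nuclear receptor gene Rorb stood at 589, 546 and 593 in lung macrophages and was listed at 0 in all 4 skin macrophage libraries, with fibroblast means of 721 and 5.58. Rps27rt, a retrotransposed copy of a ribosomal protein gene whose reads may be split with its parent, stood at 779, 1353 and 961 against 37, 51.5, 45.9 and 30.1. Tctn1 and Sec23ip behaved alike, with log2 rank ratios of 4.73 and 4.43. The 5 genes were as high in lung fibroblasts as in lung macrophages or nearly so, and limma adjusted p-values for the organ difference against fibroblasts ranged from 0.428 to 0.809.

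Chil3 and Scgb1a1 belonged to the same group. Chil3 averaged 423 ppm in lung fibroblasts and 0.322 in skin fibroblasts, and Scgb1a1, with 1321, 958 and 6858 in lung macrophages and a single read over the 4 skin libraries, averaged 742 and 2.95. Both transcripts were thus also present in lung cells that were not sorted as macrophages, and their source there was not tested. On the skin side Ctsb (106 in lung and 1440 in skin fibroblasts), Npc2 (41.3 and 528) and Gpnmb (2.9 and 523) were higher in skin fibroblasts too. The same held for Serp1 and Sem1, which act in the endoplasmic reticulum and the proteasome, for Spg21, and for the membrane glycoprotein Emb, with macrophage log2 rank ratios of -3.43 (Serp1), -3.59 (Sem1), -3.41 (Spg21) and -3.31 (Emb).

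**Figure D4:**
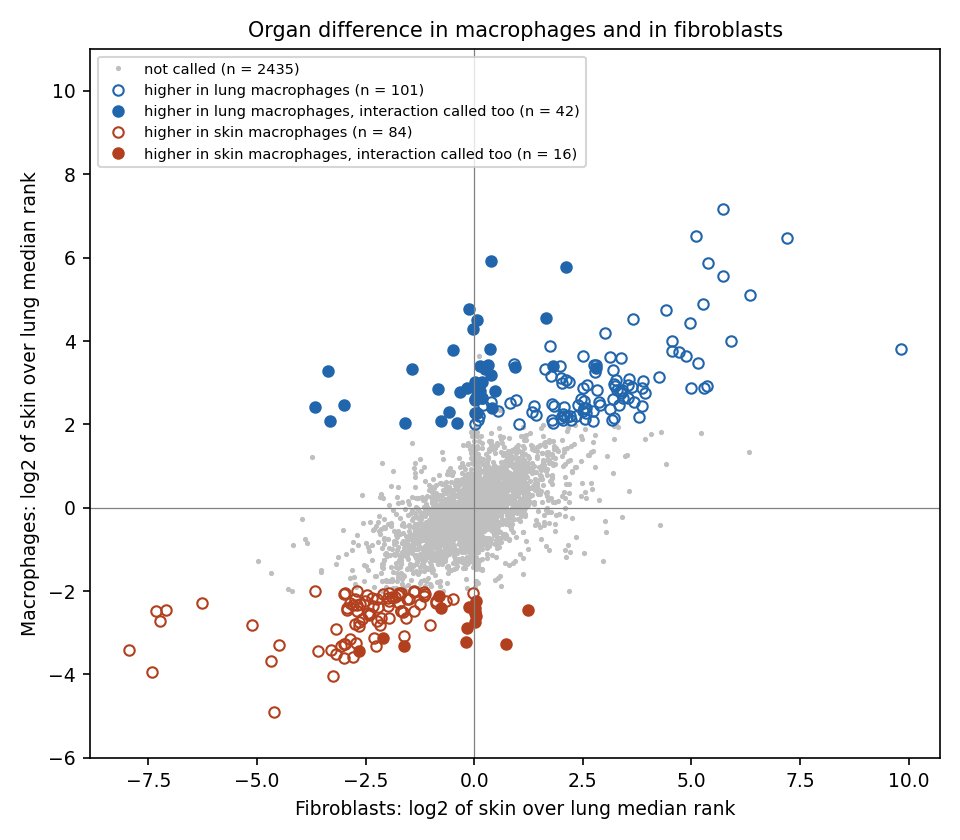
Organ difference in macrophages (vertical axis) against the same difference in fibroblasts (horizontal axis), each as log2 of the skin over the lung median rank, for the 2678 genes well expressed in macrophages. Open circles were called by rank in macrophages and filled circles also passed limma's test of the organ difference against fibroblasts (42 toward lung, 16 toward skin), and the filled points lie mostly near 0 on the fibroblast axis.

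To set the organ effect shared with fibroblasts aside, the macrophage over fibroblast difference was compared between lung and skin (the lung difference minus the skin difference, on log2 of ppm plus 10). An effect of the table on a gene that is equal in both cell types cancels in this contrast, but a value can come from the fibroblasts as well as from the macrophages. Where a gene lies near or below the 10 ppm added in the fibroblasts of both organs, little cancels. The value is then close to lung against skin macrophages alone. With limma, 261 of 6285 genes (4.15%) had a larger macrophage excess in the lung and 331 (5.27%) a smaller one at a Benjamini-Hochberg adjusted p under 0.05. With 2 instead of 10 ppm added, the numbers were 148 and 212. Of the genes called by rank, 42 of 143 (29.4%) and 16 of 100 (16%) passed in the same direction, and 6 and 5 passed in the opposite one. The contrast uses the same macrophage libraries as the ranks, so these shares are not independent support.

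Several of the lung genes described above passed this test at low fibroblast levels in both organs. Retnlg, for instance, was at 0 in the fibroblasts of both. For these genes the p-values largely restate a difference between lung and skin macrophages that the ranks had selected, and they do not set a table effect aside. The organ difference was 5.53 ± 0.67 (log2, SE; limma adjusted p = 8.61e-06) for S100a8, 5.27 ± 0.55 (limma adjusted p = 1.38e-06) for S100a9 and 4.67 ± 0.45 (limma adjusted p = 4.76e-07) for Retnlg. It was 4.95 ± 0.49 (limma adjusted p = 8.34e-07) for Cxcl13, and Ccl12 (2.58), Ccl4 (2.48), Gngt2 (3.08), Ly6c2 (2.40) and Fcgr4 (2.65) passed as well. Retnla passed with 2.29 ± 0.37 (limma adjusted p = 0.000268), whereas Chil3 had -0.05 ± 0.40 (limma adjusted p = 0.961). Retnla and Chil3, both secreted in alternative activation, therefore differed in this contrast: Retnla averaged 9.58 ppm in lung fibroblasts and Chil3 423.

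Among the other lung genes that passed, Axl and Ccl7 had fibroblasts in play. Axl had the value 5.72 ± 0.45 (limma adjusted p = 9.14e-08) and Ccl7 4.93 ± 0.39 (limma adjusted p = 9.14e-08). Axl averaged 39.1 in lung and 535 in skin fibroblasts, and Ccl7 19.5 and 232, so that both ranked higher in lung among macrophages and higher in skin among fibroblasts. Slpi (4.77), Tcf7l2 (2.94), Ubxn11 (3.79) and Cd209f (2.89) passed with a positive value, and Cd209f was at 0 in skin fibroblasts. Plac8 (1.87) lost the call in 5 of 24 alternative fits, among them those without lung macrophages 2 or 3, and Ifitm3 (1.16) and Tlcd1 (1.69) in 10 of 24 each. Pilra (2.36) lost it in 16 of 24, and leaving out single libraries of every group was enough. With 2 ppm added in place of 10, Retnla, Ly6c2, Gngt2, Cd209f and Cd209d were no longer called either.

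On the skin side, too, the ranks had selected the genes from the same macrophage libraries. Where fibroblast levels are low in both organs, the p-values largely restate that difference and do not set a table effect aside. Lyz1 had the lowest value among the genes called both ways, -3.62 ± 0.45 (limma adjusted p = 1.14e-05). It is such a gene, as it averaged 11.8 and 1.21 ppm in lung and skin fibroblasts. Slc27a3, a fatty acid transport protein, had -3.19 ± 0.55 (limma adjusted p = 0.000512) with 1 read in lung macrophages and 180, 152, 103 and 59.7 ppm in skin macrophages; its value depends on the 10 ppm added and ranged from -4.97 to -1.54 over alternative fits. Gpr183 had -3.12 ± 0.48 (limma adjusted p = 0.000126), a value that also depends on the 10 ppm added and ranged from -3.99 to -1.66 over alternative fits. Cd209d (-2.74), Casp6 (-2.84), Tifab (-2.71), Ecm1 (-2.10), Ssr1 (-1.55) and the haem transporter Slc48a1 (-2.02) passed as well, Slc48a1 not with the replicate number as a block (-1.53). Tifab and Casp6 belong to innate signalling and to apoptosis, and Ssr1 to the translocon of the endoplasmic reticulum. Emp1 (-1.12) and Mfge8 (-1.75), a bridge between macrophages and dying cells, lost the call in 17 of 24 alternative fits each, and Ugt1a7c (-2.02) in 7.

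**Figure D5:**
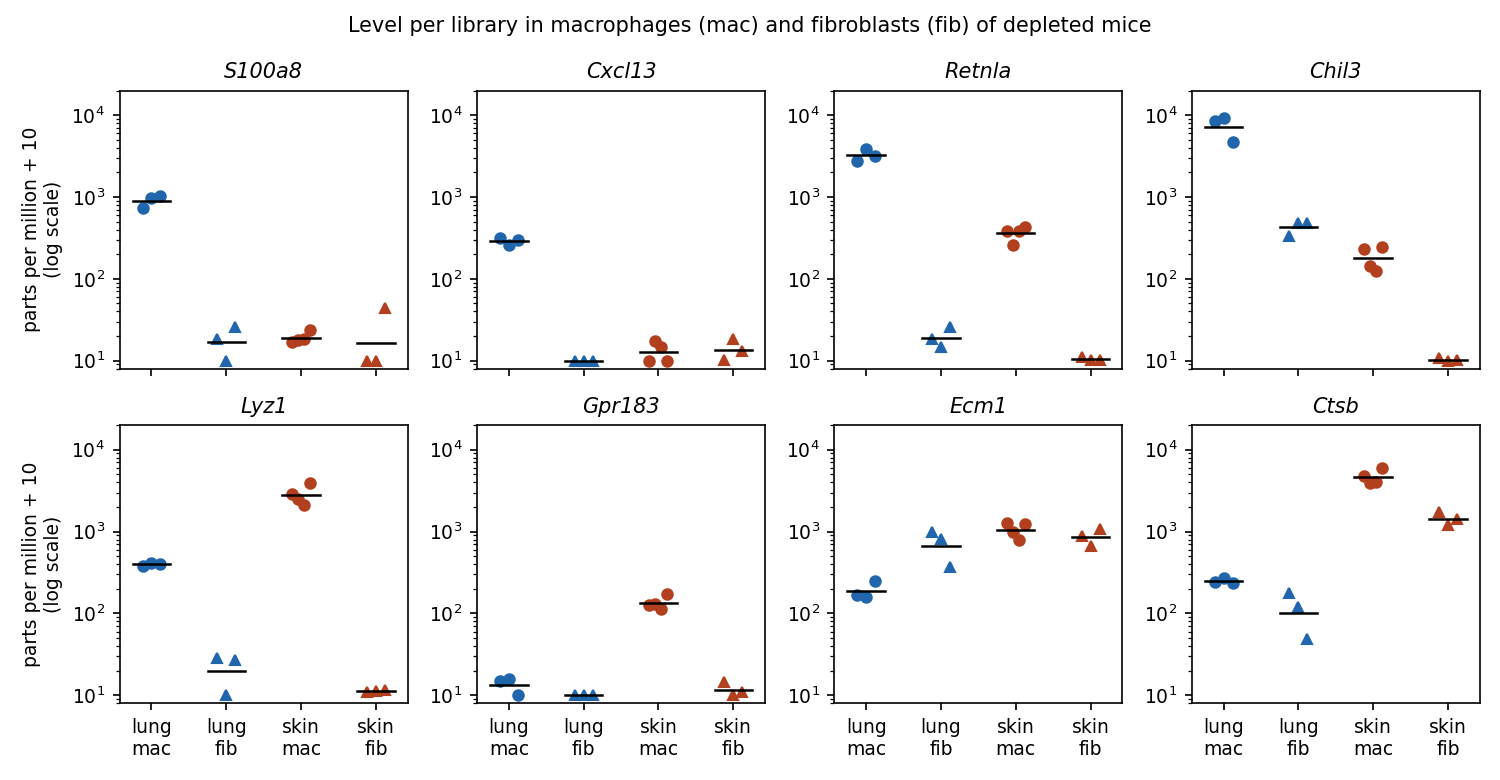
Level of 8 genes in each library of macrophages (circles) and fibroblasts (triangles) of depleted mice, lung in blue and skin in red, as ppm plus 10 on a log scale; bars are means of the plotted log values. S100a8 and Cxcl13 are high in lung macrophages alone among the 4 groups and Gpr183 in skin macrophages alone, whereas Ctsb is higher in both cell types of the skin and Chil3 in both cell types of the lung.

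Some genes changed sides in this contrast. Ctsk ranked higher in skin macrophages, yet its value was 3.99 ± 0.47 (limma adjusted p = 6.49e-06) with means of 1597 ppm in skin fibroblasts and 10 in lung fibroblasts. Lgals3 had 2.01 ± 0.26 (limma adjusted p = 1.83e-05) with fibroblast means of 69.9 in the lung and 1642 in the skin. Lyz2, nearly equal in rank between the organs, had -3.30 ± 0.36 (limma adjusted p = 2.25e-06), with 423 in lung and 19 in skin fibroblasts. Ptprc had -1.79 ± 0.45 (limma adjusted p = 0.0126) and lost the call in 2 of 24 alternative fits, and H2-Aa (-1.71), Cd163 (-1.51) and Adgre1 (-1.30) passed but lost it in 15, 18 and 17 of 24 alternative fits.

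Counts of the contrast by list are to be read beside the shares over all 6285 tested genes. These were 4.15% with a larger macrophage excess in the lung and 5.27% with a smaller one, and the interferon-stimulated counts below lie near them. By list, the contrast passed for 8 of 17 monocyte genes, all with a larger macrophage excess in the lung. Of 22 chemokine genes 8 passed toward lung and 2 toward skin, of 13 alveolar macrophage genes 5 and 1, and of 13 genes of alternative activation 1 and 4. Of 21 interferon-stimulated genes 1 passed each way. Of the 10 members well expressed in macrophages, 3 were also called higher in lung fibroblasts, beside 8.54% of all genes examined in fibroblasts. Of 33 lysosomal genes 3 passed toward lung and 3 toward skin. Of the 29 members well expressed in macrophages, 5 were called higher in skin fibroblasts, beside 7.62% of all genes examined in fibroblasts. The core macrophage list had 1 gene toward lung and 7 toward skin of 20, and the scavenger receptor list 0 and 5 of 20. None of 32 respiratory chain genes and none of 13 mitochondrial genes passed.

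The genes found in 1 table only were led by epithelial products. In the lung, 86 such genes averaged at least 50 ppm of the lung table in macrophages, and all lung-only genes together took 3.50% of the macrophage reads. Sftpc, the surfactant protein of alveolar type 2 cells, stood at 7021, 8185 and 12890, the surfactant gene Sftpa1 averaged 911, and the airway secretoglobin Scgb3a2 stood at 53, 111 and 622. Smco1 and Ctcfl averaged 1083 and 706 and were higher still in lung fibroblasts (1963 and 1659). In the skin, 35 genes averaged at least 50 ppm and all skin-only genes took 1.81% of the reads. The keratins Krt15, Krt14 and Krt5 averaged 887, 859 and 441 in skin macrophages and 2875, 2704 and 1286 in skin fibroblasts. Man2b1, a lysosomal mannosidase (455 in macrophages and 96.4 in fibroblasts), and Otulinl (269 and 20.8) completed the highest 5. Because a gene may be missing from a table through a filter, its level in the other organ is not given.

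The called genes were looked up in control mice. The controls of the skin rest on library 3, since the skin control macrophage libraries labelled 1 and 5 had fibroblast profiles in earlier results of these data. The labels of library 5 conflict, as its title holds MFIBRO in place of MAC while its cell type is given as macrophages. Skin control 3 lay outside the ranks of all 3 lung controls for 783 of the 2678 genes toward lung (29.2%) and 1072 toward skin (40%). Of the genes called in depleted mice, 143 of 143 and 100 of 100 had the same direction in controls by library 3 (137 and 87 with all 3 skin controls as labelled, among which Axl turned to -1.23 from 1.96), and 140 and 97 lay outside the lung controls. The difference was again at least 4-fold for 106 and 65 of them. The control libraries lie in the same tables, with the same normalisation and a similar gap in depth, so this agreement cannot tell organ from table. Over all well-expressed genes, 43.5% lay toward lung and 56.3% toward skin in controls. S100a8, Retnla and Ctsb, for instance, had log2 rank ratios of 7.71, 4.76 and -5.53 in controls against 5.92, 3.81 and -4.90 in depleted mice, whereas those of Cxcl13 (1.85) and Cd209f (0.64) fell short of 4-fold in controls. Whether depletion changed an organ difference was not tested, since 1 skin control library remained.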

How the data were processed

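Per the labels' protocols, RNA of sorted macrophages and fibroblasts was amplified by a kit made for single-cell amounts and read from 1 end. CASAVA 1.8, cutadapt 1.7.1, RSEM 1.7.1, limma 3.46 and build mm10 are named in the submitters' processing notes, without role or order. The authors deposited 1 normalised signal table per organ, while its normalisation method and any gene filter were not stated in the labels or headers.

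In every library the deposited signal equals estimated reads plus 0.5, times 1 constant: dividing by the library's minimum gave reads with at most 2 decimals for all genes. They were whole (within 0.01) for 81.9 to 82.6% of genes in the lung and 42.7 to 59.0% in the skin macrophage libraries, so no count model was used. Levels are ppm (parts per 1000000) of these reads over the 10123 shared genes (for genes of 1 table, over that table). Symbols came from GENCODE M21 for 10109 of them.

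Ranks were taken within libraries (Python 3.11.15). Genes with an average of both group means of at least 50 ppm were examined, and called as the results state. The organ difference of macrophages over fibroblasts was fitted with limma 3.58.1 (R 4.3.3, mean-variance trend) to log2(ppm + 10) over genes averaging at least 20 ppm in the 4 groups, with Benjamini-Hochberg adjustment over all 6285. On this scale changes of low genes are understated. The script was tested on simulated data.

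Named genes are the 12 per direction with the largest rank ratio among called genes and among those that the limma contrast also called, up to 6 members of each gene list described, the sorting genes, S100a8 and S100a9, the 10 highest genes and the 5 highest genes of 1 table per organ. Krt-type and other single markers of other cells, Cd207, Ly6g, Ddx3y, the control values and the promoters shown were chosen after their values were seen. The groups, lists and rules were chosen with earlier results of these data known. Groups follow the labels (for skin control macrophages 5 the cell type, which its title contradicts), except that skin control macrophages 1 and 5 were not used in the control comparison. Alternatives covered the expression limit, rank fold, length, thinning of the skin libraries to the depth of the shallowest library, pseudocount, filter, normalisation, the replicate block and each library left out.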

Additional observations from a re-analysis of the deposited data

Results flagged for a closer look

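Within the groups of 4 skin libraries, 1 value lay far from the others for 3 of the named genes: Cd163 at 571 ppm in skin macrophages 1, Pgk1 at 126 in the same library, and Scgb1a1 at 0.0553, a single read, in skin macrophages 2. Such a gap arises by chance in about 1 of 20 groups.

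The macrophage over fibroblast difference was not the same in lung and skin for 39 named genes by the limma contrast (lung minus skin, log2). It was higher in lung for Axl (5.72), S100a8 (5.53), S100a9 (5.27), Cxcl13 (4.95), Ccl7 (4.93), Slpi (4.77), Retnlg (4.67), Ctsk (3.99), Ubxn11 (3.79), Gngt2 (3.08), Tcf7l2 (2.94), Cd209f (2.89), Fcgr4 (2.65), Ccl12 (2.58), Ccl4 (2.48), Ly6c2 (2.40), Pilra (2.36), Retnla (2.29), Lgals3 (2.01), Plac8 (1.87), Tlcd1 (1.69) and Ifitm3 (1.16). It was lower in lung for Lyz1 (-3.62), Lyz2 (-3.30), Slc27a3 (-3.19), Gpr183 (-3.12), Casp6 (-2.84), Cd209d (-2.74), Tifab (-2.71), Ecm1 (-2.10), Slc48a1 (-2.02), Ugt1a7c (-2.02), Ptprc (-1.79), Mfge8 (-1.75), H2-Aa (-1.71), Ssr1 (-1.55), Cd163 (-1.51), Adgre1 (-1.30) and Emp1 (-1.12). Macrophages and fibroblasts both enter these values.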

How the results depend on the processing

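No rank ratio or limma value of a called named gene in depleted mice changed sign under the alternatives run; the rank ratios of Itgam, mt-Atp6 and mt-Co1, near 0 and not called, did. Counts of genes called by rank, lung before skin, were 46 and 31 from 200 ppm upward, 353 and 355 at 2-fold, 56 and 24 at 8-fold, and 93 and 54 per kilobase of exons, which keeps 93 and 53 of the genes called before. Without 1 library they ranged from 138 to 149 and from 98 to 107. Thinning the skin libraries kept 135 of 143 and 84 of 100 calls. The limma contrast called 148 and 212 genes with 2 ppm added and 167 and 188 with thinned skin libraries; without 1 library the ranges were 212 to 258 and 252 to 330. Genes called both ways toward lung numbered 27 with 2 ppm added, and without 1 library 35 to 43 (lung) and 13 to 18 (skin). Without 1 library, fibroblast calls ranged from 283 to 328 and 224 to 288, macrophage calls shared with fibroblasts from 72 to 84 and 51 to 60, and calls of the same direction in controls from 142 to 143 and 100 to 100; these were 137 and 87 with all 3 skin controls as labelled and 143 and 98 with thinned skin libraries. From 200 ppm upward the median correlation was 0.71 between lung and skin macrophages, 0.145 between lung macrophages and lung fibroblasts and 0.193 between those of the skin. The deviations of macrophage libraries of equal number correlated weakly (0.0185, 0.0735 and 0.057), and not every library correlated best with its own number. Whether libraries of equal number came from the same mouse cannot be told from these values. With the replicate block the contrast called 229 and 246 genes and kept 35 of 42 and 12 of 16 calls. At the depth of the lung libraries, where 1 read is worth about 5 ppm, differences of genes below that level were not detectable. Leaving out lung macrophages 3 and skin macrophages 5 together was chosen after seeing the data.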
